A study of Solanum lycopersicum with 6 samples.

Results

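The gene models described here lie in the middle of tomato chromosome 5. They were chosen by identifier, from Solyc05g020000 to Solyc05g045999, and by level, with a mean of at least 1 FPKM over the 3 slgols2 or over the 3 WT libraries. FPKM are fragment numbers divided by the length of the gene model and by the depth of the library. Of 482 gene models with such identifiers, 110 passed, out of 16227 that pass the same level rule in the whole table. Of the 110, 92 reached the level in both genotypes, 7 in slgols2 alone and 11 in WT alone. The stretch was picked because earlier results on these libraries showed gene models there that were present in a single genotype, so the slgols2 against WT values chose it. Those values are given below as a description, and the calls of the test over all genes are set out once, at the end.

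All libraries were made from fruit of the tomato cultivar Ailsa Craig at 30 days post anthesis (DPA), from the pericarp, or fruit wall, of the shoulder at the stalk end. There were 3 slgols2 libraries, from fruit labelled as knock-out and made by CRISPR-Cas9 editing, and 3 WT libraries from unedited fruit of the same cultivar, tissue and stage. All plants were kept in 1 greenhouse regime of long days. How many edited lines were used, and whether the replicates came from separate plants, is not given in the sources used here. The p-values therefore cover only library-to-library spread, and this may be technical.

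The identifiers carry the chromosome number followed by a number that increases along that chromosome, so their order gives the order of the genes. In tomato the middle of a chromosome is mostly repeat-rich heterochromatin around the centromere. Genes are sparse there, and crossing over is rare, so that long tracts pass between generations as blocks. Reads are counted at a gene model only where they align to the reference sequence. A value of 0 thus says that no read was counted at that model of the reference, and the reason for it was not tested. Identifiers stand without names in the deposited table, and 0 of them matched the RefSeq gene table used here (assembly SLM_r2.1), so no function is given to any gene model, the edited gene was not looked up, and markers of the fruit wall were not checked.

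Library depths recovered from the values lay between 16054248 and 17941974 fragments in slgols2 and between 15593387 and 17448121 in WT. Replicate 3 of slgols2 stood apart. Across tested genes its log2(FPKM + 1) values correlated at 0.849 and 0.869 with slgols2 replicates 1 and 2, which correlated with each other at 0.957. With WT replicates 1, 2 and 3 it correlated at 0.891, 0.903 and 0.878. Genes are not independent replicates, so these are descriptions of the libraries. Bulk RNA does not tell fewer cells of a type from less RNA per cell.

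The 110 gene models fell into 5 classes. A set of 3 was present in slgols2 only, with 0 in all 3 WT libraries. None was present in WT only. Another 14 were lower and 2 were higher in slgols2, by at least 2-fold in the means and with no overlap of the libraries. In 74 the ratio of the means lay within 1.5-fold, and the remaining 17 met none of these rules. Without slgols2 replicate 3, the library that stood apart, 3 were present in slgols2 only, 0 in WT only, 14 were lower, 4 were higher and 72 lay within 1.5-fold. Leaving out a library cannot make separate groups overlap or turn a 0 into reads. The counts in a single genotype or without overlap are therefore a weak check. Over all 16227 gene models at this level, 0.123% were present in slgols2 only and 0.197% in WT only. In the same background 3.71% were lower in slgols2 without overlap, 1.65% were higher without overlap, 75.8% lay within 1.5-fold and 18.5% met no rule. Without the fold rule, the libraries of 26 members lay wholly below WT and those of 11 wholly above, against 10.1% and 9.60% of the background. Because the stretch was chosen on this contrast, the class counts are not read against those shares.

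**Figure D1:**
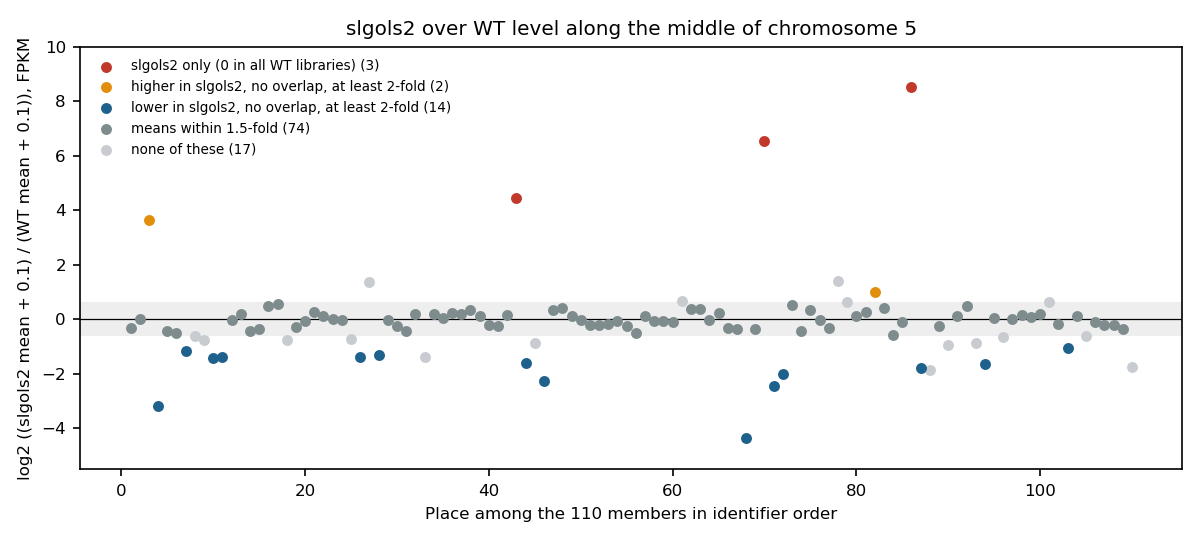
The log2 ratio of the mean FPKM, slgols2 over WT with 0.1 FPKM added to each, is plotted against the place of each of the 110 gene models in identifier order, and the grey band marks 1.5-fold. The 3 gene models present in slgols2 only stand at places 43, 70 and 86, and the 14 lower ones are spread from place 4 to place 103 among the 74 that lie within the band.

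Solyc05g041700.1 had the highest level of the 3 present in slgols2 only. It stood at 54.0, 31.5 and 26.3 FPKM in slgols2 replicates 1, 2 and 3, and was listed at 0 in all 3 WT libraries. These values rested on 255, 133 and 113 recovered reads in slgols2 and on none in WT. With a floor of 3 reads per WT library, the slgols2 mean was at least 54.6-fold higher than the floor. It is a short model of 263 bases, and the 2 gene models on each side of it in the table were at 0 in all 6 libraries. Reads at this place of chromosome 5 were therefore seen at a single model and in the slgols2 libraries alone.

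Solyc05g032670.2 stood at 10.1, 5.75 and 12.0 FPKM in slgols2 replicates 1, 2 and 3 and at 0 in all 3 WT libraries. Its length of 3856 bases makes it the longest of the 3, and it held 700, 356 and 757 reads in slgols2. The slgols2 mean was at least 199.7-fold higher than the WT floor of 3 reads per library. The next 2 models by identifier, Solyc05g032680.3 and Solyc05g032700.3, were lower in slgols2 and are among the 14 lower members. Its neighbour on the other side, Solyc05g032665.1, was at 0 in all 6 libraries, and Solyc05g032660.3 averaged 2.7 ± 0.437 FPKM in slgols2 and 3.44 ± 0.318 FPKM in WT (SD, n = 3 each).

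Solyc05g025800.1 stood at 2.20, 2.46 and 1.61 FPKM in slgols2 and at 0 in WT, but its level rested on 3, 3 and 2 reads. At a recovered length of 76 bases, a floor of 3 reads is worth 2.36 FPKM on average in WT, more than the slgols2 mean of 2.09 FPKM. The recovery takes the smallest length and reads that fit, so a multiple of both would give the same values. At the recovered length, so few reads give no bound on a fold between the genotypes for this gene model, although it passed the test over all genes given below. Its neighbours were a lower member, Solyc05g025810.3, and Solyc05g025790.3, which was under 1 FPKM in both genotype means.

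**Figure D2:**
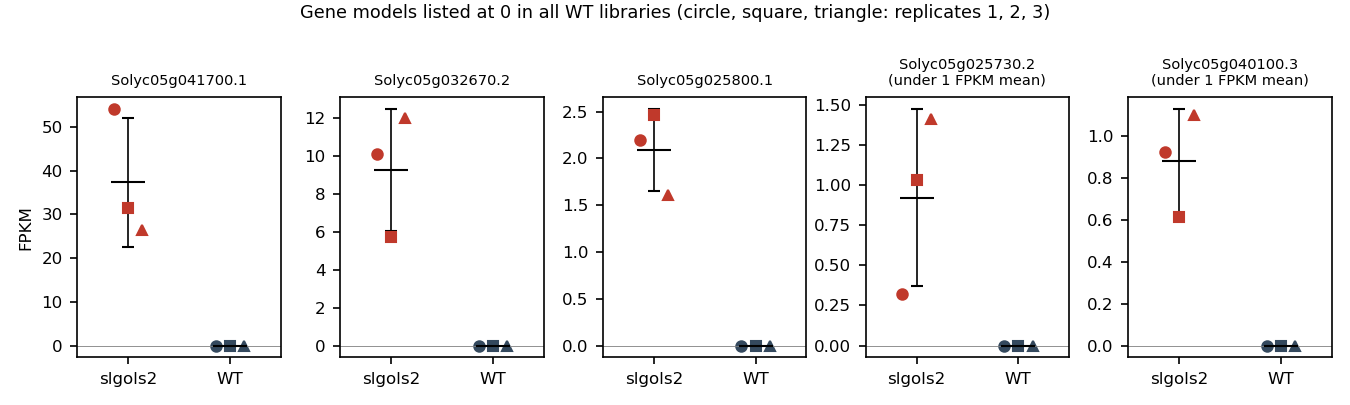
FPKM in each library is plotted for the 3 gene models present in slgols2 only and for 2 further models whose slgols2 mean was under 1 FPKM, with bars for the mean and SD (n = 3 per genotype) and a separate axis for each model. All WT libraries lie at 0, and the slgols2 libraries range from 26.3 to 54.0 FPKM in Solyc05g041700.1 and from 0.612 to 1.10 FPKM in Solyc05g040100.3.

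The level rule left out 372 gene models of the stretch, of which 300 were at 0 in all 6 libraries. The other 72 held reads in at least 1 library, and 3 of them had reads in all 3 slgols2 libraries and none in WT. Solyc05g040100.3 was the clearest, with 59, 35 and 64 reads in slgols2 replicates 1, 2 and 3 against 0 in WT. That is 0.923, 0.612 and 1.10 FPKM, and the mean was at least 17.4-fold above the WT floor. Solyc05g025730.2 had 7, 20 and 28 reads in slgols2 and 0 in WT, at least 6.22-fold above the floor. At the recovered lengths, both rest on more reads than Solyc05g025800.1. If its recovered length holds, that model passed the level rule only because it is short. The third, Solyc05g025683.1, had 3, 3 and 2 recovered reads, which is not above the floor. In the opposite direction a single gene model under the level rule, Solyc05g042170.1, had 0 reads in slgols2 and 3, 1 and 1 in WT. These models were picked out after their values were seen.

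The threshold of 1 FPKM fell between gene models of nearly the same level. Just inside it, Solyc05g026380.2 averaged 0.981 FPKM in slgols2 and 1.02 FPKM in WT, and Solyc05g043410.1 averaged 1.08 FPKM in both. Just outside it, Solyc05g043400.1 averaged 0.775 FPKM in slgols2 and 0.983 FPKM in WT, and Solyc05g023767.1 averaged 0.651 FPKM in slgols2 and 0.955 FPKM in WT.

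No member was at 0 in all 3 slgols2 libraries while present in WT. The nearest to that were 2 of the 14 lower members. Solyc05g032620.1 stood at 0, 0.934 and 0 FPKM in the slgols2 libraries in order of replicate, against 6.59, 6.09 and 12.2 FPKM in WT. The single slgols2 library above 0 held 3 reads, and the WT libraries held 23, 21 and 38. Solyc05g021510.2 stood at 0, 0.790 and 0 FPKM in slgols2, against 3.25, 3.59 and 2.82 FPKM in WT. Here slgols2 replicate 2 held 17 reads, and the WT libraries held 76, 83 and 59. Without slgols2 replicate 2, both would count as present in WT only, which raises that count to 2.

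Solyc05g025820.3, a gene model under the level rule, showed the same arrangement, with 0, 17 and 0 reads in slgols2 against 30, 27 and 24 in WT. After these values were seen, all gene models with at least 10 reads in every WT library and 0 in exactly 2 slgols2 libraries were counted. There were 3 in the stretch, and in all 3 the remaining reads were in slgols2 replicate 2. In the whole table there were 22, with the remaining reads in slgols2 replicate 1 for 3, in replicate 2 for 9 and in replicate 3 for 10. Replicate 2 was also the lowest of the slgols2 libraries in Solyc05g032670.2 and Solyc05g040100.3, though not in Solyc05g041700.1 or Solyc05g025730.2.

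The 14 lower members ranged from 0.263 to 6.51 FPKM in slgols2 means and from 1.15 to 19.8 FPKM in WT means. Their WT means exceeded their slgols2 means by 2.14-fold to 26.6-fold, and 6 of the 14 did so by 4-fold or more. Besides the pair above, Solyc05g032680.3 stood at 0.598, 2.67 and 1.97 FPKM in slgols2, against 10.7, 7.50 and 12.0 FPKM in WT, a log2 ratio of means of -2.53. All 3 slgols2 libraries lay well below the lowest WT library. Solyc05g032700.3, its neighbour, stood at 0.0856, 0.407 and 0.517 FPKM in slgols2, against 1.30, 2.25 and 1.40 FPKM in WT. This pair follows Solyc05g032670.2 in identifier order, so of 3 neighbouring members 1 was present in slgols2 only and 2 were lower.

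Solyc05g025890.2 stood at 0.982, 1.10 and 0 FPKM in slgols2, against 1.29, 6.64 and 3.23 FPKM in WT. The groups only just missed each other, since the highest slgols2 and the lowest WT library differed by less than the spread within WT. The same holds for Solyc05g041750.1, at 0.682, 0.508 and 0 FPKM in slgols2 against 0.936, 0.710 and 3.14 FPKM in WT. It rested on 3, 2 and 0 reads in slgols2 and on 4, 3 and 12 in WT, and without WT replicate 3 its log2 ratio of means was -1.05, against -2.01 with it.

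Of the remaining 8 lower members, the highest in WT was Solyc05g025810.3, which averaged 6.51 ± 4.65 FPKM in slgols2 and 19.8 ± 2.30 FPKM in WT (SD, n = 3 each). Its slgols2 libraries were unlike each other, at 6.78, 11 and 1.73 FPKM. Solyc05g043330.3 stood at 4.33, 4.55 and 5.76 FPKM in slgols2 against 13.2, 13.9 and 19.5 FPKM in WT. The mean ratio was 3.18-fold, and all 3 slgols2 libraries stood between 27.9% and 37.1% of the WT mean. In 9 of the 14 lower members the highest slgols2 library was replicate 2, as it was in 53 of all 110 members. Relative to the WT mean of log2(FPKM + 1), the median over the 14 was -1.30, -0.87 and -1.26 in the 3 slgols2 libraries, against -0.18, 0.05 and 0.09 in WT.

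**Figure D3:**
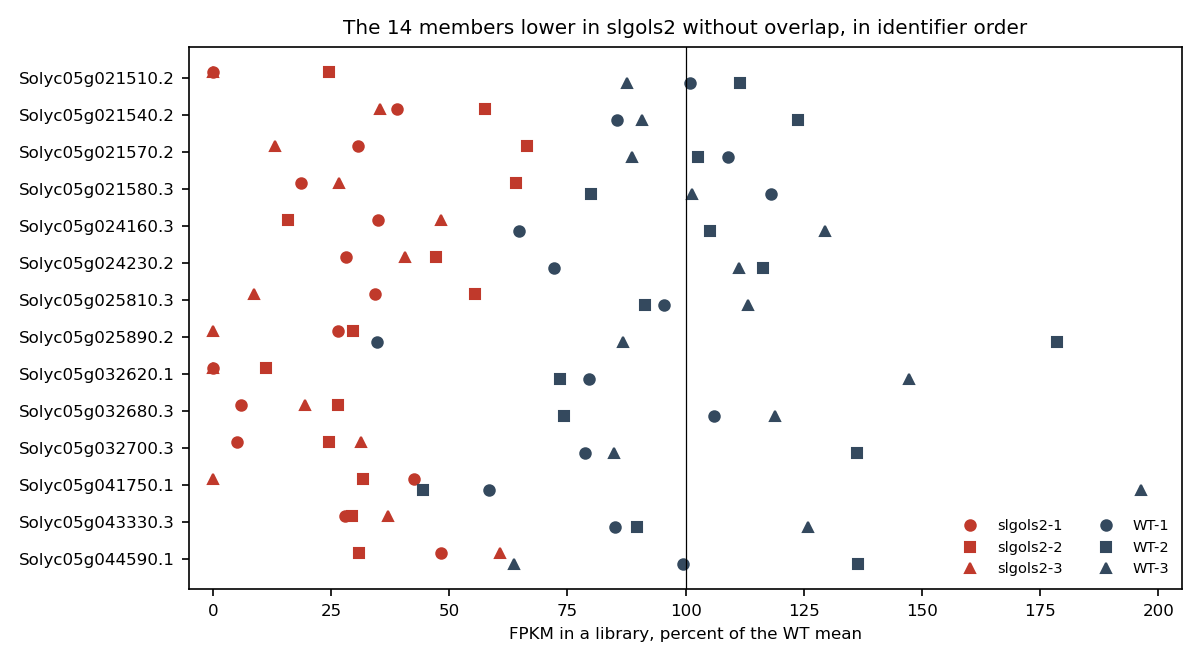
FPKM in each library, as a percent of the WT mean of the gene model, is plotted for the 14 members lower in slgols2 without overlap, in identifier order with slgols2 libraries above WT libraries in each row. Solyc05g021510.2 and Solyc05g032620.1 lie at 0 in slgols2 replicates 1 and 3 and at 24.5% and 11.3% in replicate 2.

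Only 2 members were higher in slgols2 by at least 2-fold without overlap while above 0 in WT. Solyc05g021145.1 stood at 3.43, 2.37 and 0.769 FPKM in the 3 slgols2 libraries, against 0.144, 0.0486 and 0.0537 FPKM in WT. In reads that was 147, 91 and 30 in slgols2 against 6, 2 and 2 in WT. The slgols2 mean was 26.7-fold higher, a log2 ratio of 4.74, and replicate 3 was the lowest slgols2 library. WT replicates 2 and 3 lay under the floor of 3 reads, and without WT replicate 1 the log2 ratio was 5.42, so the size of this fold is uncertain. Solyc05g041390.1 had a smaller ratio, with 2.14, 1.65 and 1.77 FPKM in slgols2 against 0.413, 1.26 and 0.925 FPKM in WT, 2.14-fold in the means, which rested on 16, 11 and 12 reads in slgols2 and on 3, 9 and 6 in WT.

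Most members had close means in the 2 genotypes. In 74 members the log2 ratio of the mean FPKM lay between -0.58 and 0.58, and in 62 of the 74 the slgols2 and WT libraries overlapped. A p above a threshold does not bound a difference, so the 95% interval of the log2 difference in the fit of log2(FPKM + 1) was used. It lay inside -1 to 1, that is within 2-fold on that scale, for 67 of the 104 members that were tested, and 62 of these 67 belonged to the 74. In the background of all tested genes 65.8% met this rule. The added 1 FPKM narrows the intervals of low genes, and with 0.1 FPKM in its place 55 members met it.

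Solyc05g023800.3 was the highest of the members within 1.5-fold, at 97.8, 115.2 and 102.1 FPKM in slgols2 against 120.5, 117.3 and 93.0 FPKM in WT. The groups overlapped, and the interval of the log2 difference ran from -0.53 to 0.40. Solyc05g043430.3 averaged 37.6 ± 9.09 FPKM in slgols2 and 35.2 ± 3.64 FPKM in WT, and Solyc05g023820.3 averaged 35.5 ± 6.74 FPKM in slgols2 and 29.4 ± 4.11 FPKM in WT (SD, n = 3 each). Solyc05g023740.3, Solyc05g024430.3 and Solyc05g041200.3 averaged 23.6, 30.6 and 29.7 FPKM in slgols2, against 30.3, 25.8 and 24.6 FPKM in WT. The intervals of these 5 also stayed within 2-fold, but that of Solyc05g041200.3 ran from -0.66 to 1.0 after rounding, at the bound.

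For 4 of the 10 highest members within 1.5-fold the means were close but the interval was wider than 2-fold. Solyc05g024415.1 averaged 30.3 ± 13.7 FPKM in slgols2 and 29.5 ± 11.1 FPKM in WT, with an interval from -1.15 to 1.13. Solyc05g026500.1 averaged 42.8 ± 11 FPKM in slgols2 and 33.3 ± 13 FPKM in WT, and Solyc05g026420.1 averaged 31.0 ± 9.36 FPKM in slgols2 and 33.2 ± 15.9 FPKM in WT. Solyc05g025900.3 averaged 30.3 ± 6.39 FPKM in slgols2 and 23.7 ± 9.82 FPKM in WT (SD, n = 3 each). The log2 differences were -0.01 (SE 0.47) in Solyc05g024415.1 and -0.02 (SE 0.44) in Solyc05g026420.1, against 0.38 (SE 0.33) in Solyc05g026500.1 and 0.40 (SE 0.34) in Solyc05g025900.3. The last pair had about the same SE as Solyc05g041200.3, whose difference of 0.17 (SE 0.34) kept its interval only just within 2-fold.

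**Figure D4:**
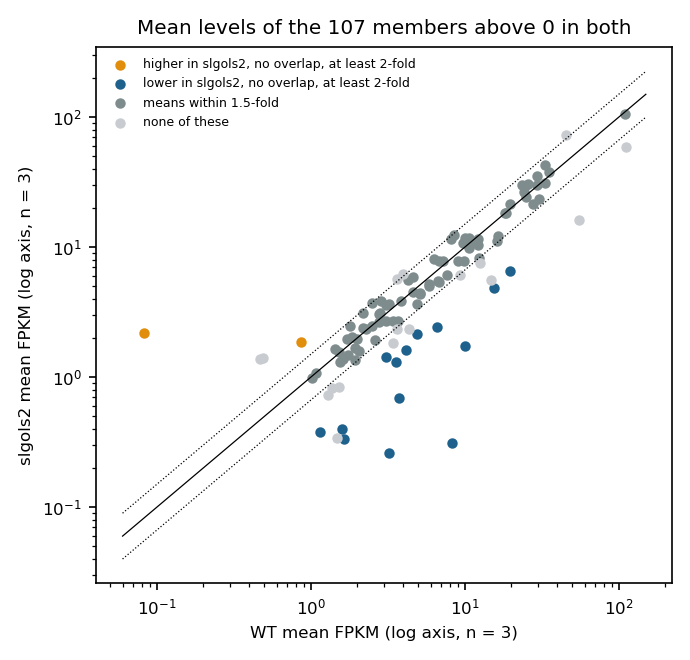
The mean FPKM in slgols2 is plotted against the mean FPKM in WT on log axes for the 107 members above 0 in both, with a solid line for equal means and dotted lines for 1.5-fold. The 74 members within 1.5-fold cover means from about 1 FPKM to 105.1 FPKM in slgols2 and 110.3 FPKM in WT.

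In identifier order the members were divided into 6 blocks by identifier number, set after the values were seen. The first, from Solyc05g020020.3 to Solyc05g021580.3, held 11 members, of which 4 were lower and 1 was higher without overlap, and 4 lay within 1.5-fold. It opened with Solyc05g020020.3, at 7.88 ± 1.5 FPKM in slgols2 and 9.94 ± 0.538 FPKM in WT (SD, n = 3 each). Its last 3 members, Solyc05g021555.1, Solyc05g021570.2 and Solyc05g021580.3, all lay below WT without overlap. Solyc05g021570.2 and Solyc05g021580.3 averaged 2.45 and 1.31 FPKM in slgols2, against 6.65 and 3.6 FPKM in WT. Models this close in identifier can overlap, and since no strand setting is given, their reads may not be separate.

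The second block, up to Solyc05g024430.3, held 25 members, with 19 within 1.5-fold and 2 lower. The third, from Solyc05g025500.3 to Solyc05g026570.3, was the most even, with 26 of its 31 members within 1.5-fold, 1 present in slgols2 only and 2 lower. Its 3 neighbours Solyc05g025810.3, Solyc05g025870.3 and Solyc05g025890.2 all lay below WT without overlap. The fourth block, of 9 members around Solyc05g032670.2, held 1 member present in slgols2 only, 3 lower and 5 within 1.5-fold. The fifth, from Solyc05g039940.2 to Solyc05g041910.3, held 14 members, with 1 in slgols2 only, 1 higher, 1 lower and 7 within 1.5-fold.

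The sixth block, from Solyc05g042030.3 to the end, held 20 members, with 2 lower and 13 within 1.5-fold. It closed with Solyc05g045670.3, at 35.0, 1.49 and 11.7 FPKM in slgols2 and 114.1, 1.99 and 49.1 FPKM in WT. The libraries of each genotype differed so widely that the groups overlapped, and in both genotypes replicate 2 was the lowest. No run of neighbouring members without overlap in a single direction was longer than 3. Runs in opposite directions adjoined in places, as from place 16 to place 19 and from place 43 to place 46. Members without overlap therefore stood partly side by side and partly among members whose libraries overlapped.

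Of the 17 members that met no rule, 12 had the lower mean in slgols2 and 5 the higher. The libraries of 11 overlapped, and the other 6 lay below WT by less than 2-fold. Solyc05g041910.3 was the highest of the 17, at 30.2, 62.2 and 83.5 FPKM in slgols2 against 150.5, 140.9 and 43.3 FPKM in WT.

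Model version was not used to choose the members, and gene length entered only through FPKM, which divides by it. A given number of reads thus passes the level rule more easily in a short model. The recovered length had a median of 2047 bases over the 14 lower members and of 3905 bases over the 74 within 1.5-fold. It was 76, 263 and 3856 bases in the 3 present in slgols2 only. Over all members the median was 3267.5 bases, against 4110 bases for all gene models at this level. Models whose identifier ends in version 1 made up 30 of the 110 members (27.3%), against 17.5% in the whole table. The same identifier numbers on the other chromosomes gave 21.8% together, and from 13.2% on chromosome 10 to 28.6% on chromosome 1. Version 1 models comprised 2 of the 3 present in slgols2 only, 3 of the 14 lower members and 18 of the 74 within 1.5-fold. Spread between replicates was wider in slgols2, with a median coefficient of variation of 25.3% over the members, against 15.3% in WT. The medians over the whole table at this level were 26.3% in slgols2 and 16.9% in WT.

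The stretch was thinner in expressed genes than the rest of its chromosome, since 22.8% of its gene models passed the level rule, against 49.2% before it and 50.9% after it. The same identifier numbers on the 11 other chromosomes gave 30.4% together, and from 22.0% on chromosome 6 to 43.5% on chromosome 3. A low share was thus not particular to chromosome 5. Elsewhere on chromosome 5 there was 1 gene model present in slgols2 only before the stretch, among 614 at this level, and 1 after it, among 407, and none was present in WT only. The one before it, Solyc05g016250.3, had 312, 122 and 304 reads in slgols2 and 0 in WT. The one after it, Solyc05g051720.1, had 0, 7 and 39 reads in slgols2 and 0 in WT. Lower members without overlap made up 12.7% of the stretch, 5.86% of the gene models before it and 3.69% of those after it.

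The same number range on the other chromosomes held 4 gene models present in slgols2 only and 15 present in WT only, among 1273. Chromosome 4 held 2 and 9 of these, among 73 gene models. In slgols2 only, the shares were alike, at 2.73% in the chromosome 5 stretch and 2.74% on chromosome 4. In WT only they were 0.0% and 12.3%, and the count of 0 on chromosome 5 rose to 2 without slgols2 replicate 2. Chromosome 12 held 2 of each kind, among 193. The share within 1.5-fold was 67.3% in the chromosome 5 stretch, 68.5% on chromosome 4, 66.8% on chromosome 12, and between 74.5% and 92.5% on the other 9. These shares are descriptions, and their differences were not tested.

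**Figure D5:**
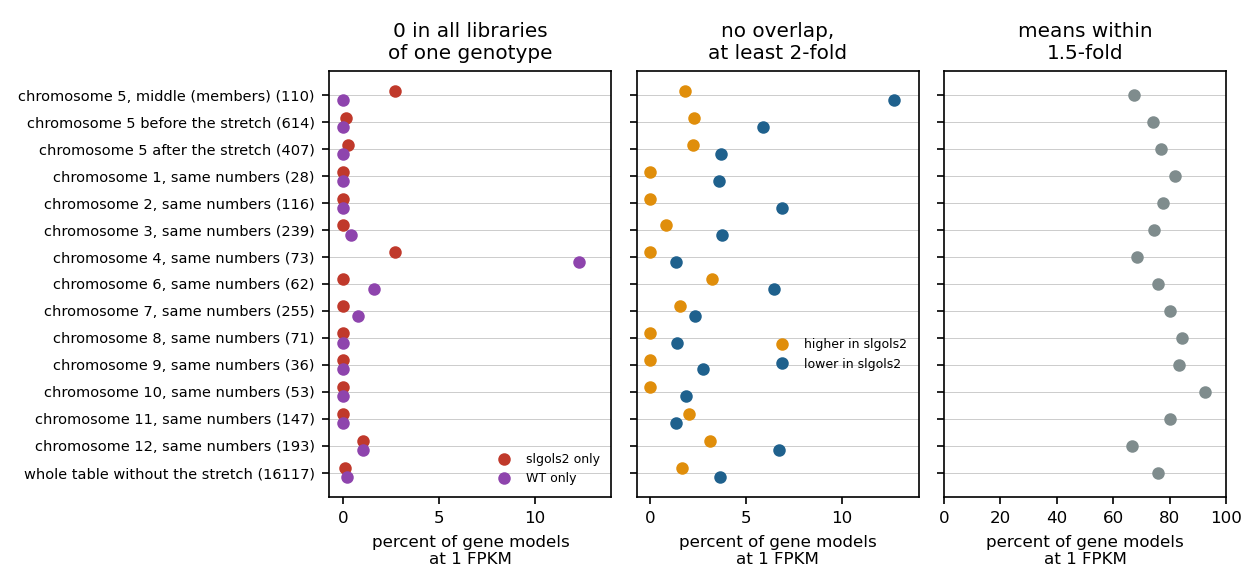
Each row gives a stretch, with the number of its gene models at 1 FPKM in brackets, and the 3 panels give the percent of them at 0 in all libraries of a single genotype, differing without overlap by at least 2-fold, and within 1.5-fold. The chromosome 5 members stand at 2.73% present in slgols2 only and 12.7% lower in slgols2. Chromosome 4 stands at 2.74% present in slgols2 only and 12.3% present in WT only.

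In the test over all 15695 tested gene models (limma on log2(FPKM + 1), Benjamini-Hochberg adjustment over all of them), 0.229% passed an adjusted p of 0.05. The other 6 members had too low a mean to be tested, and of the 104 tested 3 passed and all were higher in slgols2, namely the 3 present in slgols2 only. The log2 change was 5.19 (SE 0.27, adjusted p = 0.00243, limma) for Solyc05g041700.1. It was 3.31 (SE 0.26, adjusted p = 0.00993, limma) for Solyc05g032670.2 and 1.62 (SE 0.16, adjusted p = 0.0303, limma) for Solyc05g025800.1. The call for Solyc05g025800.1 rests on 3, 3 and 2 recovered reads, with its slgols2 mean under the WT floor at the recovered length. All 3 slgols2 libraries were higher in each, and these fitted values are not bounds on a fold, since WT was at 0. The WT values had no spread, so the SE and adjusted p of these 3 hold no counting error from WT. None of the lower members passed with all 6 libraries, and their adjusted p ran from 0.0558 for Solyc05g032620.1 to 0.374 (limma), with 3 of the 14 too low to be tested. An unadjusted p under 0.05 was found for 27 members, 9 higher and 18 lower, against 12.0% of all tested genes. Since the stretch was chosen on this contrast, nothing is read from these counts.

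The calls did not hold throughout. Over the alternatives in which each was tested, Solyc05g041700.1 passed in 11 of 13, with a highest adjusted p of 0.097 in limma. Solyc05g032670.2 passed in 7 of 12, with a highest of 0.138, and Solyc05g025800.1 in 3 of 9, with a highest of 0.293. With limma-voom on recovered reads 0 members passed, the adjusted p being 0.0662 for the first pair and 0.293 for Solyc05g025800.1, although 23 members had an unadjusted p under 0.05. Without slgols2 replicate 1, WT replicate 1 or WT replicate 2, the single call left was Solyc05g041700.1. Without slgols2 replicate 3, 4 members passed, Solyc05g041700.1 and Solyc05g032670.2 among them, and Solyc05g025800.1 was not tested. The others were Solyc05g021145.1, higher in slgols2 (log2 change 1.84, adjusted p = 0.0247, limma), and Solyc05g043330.3, lower in slgols2 (log2 change -1.58, adjusted p = 0.0377, limma). Without slgols2 replicate 2, Solyc05g021510.2 passed as lower in slgols2 (log2 change -2.07, adjusted p = 0.0447, limma). Each of the 3 passed in 1 alternative only, of 10, 13 and 12 in which it was tested, with a highest adjusted p of 0.518 for Solyc05g021145.1, 0.256 for Solyc05g043330.3 and 0.317 for Solyc05g021510.2 (limma). A block for replicate number left 0 members past the threshold in limma, 21 having an unadjusted p under 0.05.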

How the data were processed

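RNA sequencing libraries of 3 slgols2 and 3 WT pericarp samples were grouped by title. The deposited values are FPKM, per the file headers, for 35768 gene models in 6 library columns. The submitters' processing notes list the tools HISAT2 2.1.0 and DESeq 1.38.3. For the counting tool, build, annotation and strand setting, the sources used here give nothing. The members, classes and tests were chosen with earlier results of these data known.

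Depth and gene length were recovered from the FPKM values as those giving whole reads, within 0.001 reads. At these depths 97.4% of 4000 low genes gave a whole length, against 48.6% at the best other depth, and 15694 of 15695 tested genes gave whole reads. Where reads share a divisor, the smallest length and reads were taken. On simulated reads all 6 depths and 90.9% of 6858 genes were exact. Read floors and bounds cover counting error only.

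Genes averaging at least 1 FPKM over the 6 libraries were fitted with limma 3.58.1 (R 4.3.3) on log2(FPKM + 1), with an intensity trend, genotype as the single term, and two-sided tests. This scale understates changes of low genes. Simulating slgols2 against WT on 15695 genes, with 50 changed per size, the fit found 30% at a log2 size of 1, then 58% (size 2), 86% (size 3) and 88% (size 4), with 7 false calls. The changed genes were drawn only from those with a mean log2(FPKM + 1) above 2 and were shifted on that scale. These shares therefore do not cover lower genes. Libraries were drawn independently, with a single SD per gene for both genotypes. The shares and false calls thus also leave out the wider spread in slgols2, the library that stood apart, and members at 0 in all WT libraries. An exact permutation test of 3 against 3 cannot go below 0.10, so none was used. Named members are all those in a single genotype, up to 6 lower and 6 higher without overlap by ratio, the 10 highest within 1.5-fold, both ends of the stretch, and models beside the threshold or beside a single-genotype member. Others were picked after their values were seen. Alternatives changed the pseudocount, filter, scaling, level rule or tool (limma-voom), added a replicate block, or left out a library.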

Additional observations from a re-analysis of the deposited data

How the results depend on the processing

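The count of 3 members past the threshold was 1 with a filter of 5 FPKM, where 50 members were tested, and 0 with limma-voom on recovered reads or with the replicate block, for which the cause was not tested. It was 2 with a pseudocount of 0.1 and 3 with no filter, median-ratio scaling or quantile normalization. Leaving out each library gave 1 to 4, including 1 lower member without slgols2 replicate 2 and 1 without slgols2 replicate 3. The 67 members held within 2-fold became 30 at a filter of 5 FPKM, since fewer were tested, and lay between 57 and 70 with a library left out. Members present in slgols2 only numbered 3 to 4 with a library left out and 5 at a level rule of 0.5 FPKM, which lets 2 lower gene models in. Members present in WT only numbered 0 to 2, and the 2 appeared without slgols2 replicate 2. Those within 1.5-fold numbered 72 to 76, those higher without overlap 1 to 4 and those lower 14 to 15 with a library left out, and 1 was higher at a level rule of 2 FPKM. A left-out library cannot make separate groups overlap or turn a 0 into reads. The narrow ranges for slgols2 only and for lower members are therefore weak evidence that these classes are stable. The labels do not say that a replicate number links an slgols2 with a WT library, and same-numbered libraries did not deviate together, with correlations of -0.15, 0.0888 and -0.165, so the block is not read as a pairing. Of 20 named members with a ratio, 15 kept its sign under median-ratio scaling and with each library left out, where a ratio could be formed. The named members lower or higher without overlap are all among the 15. Their libraries do not overlap, so leaving out a library could not change their sign, and their part of this count is no check. Solyc05g032620.1 and Solyc05g021510.2, among the 15, had no ratio without slgols2 replicate 2. Solyc05g023800.3 is not among the 15 because its log2 ratio rounded to -0.0 without WT replicate 1. Depth limits short models most: Solyc05g025800.1, with a recovered length of 76 bases, held at most 3 recovered reads in a library.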
